A study of Homo sapiens with 4 samples.

Results

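The 10 genes described here belong to the YAP/TEAD branch of the Hippo pathway. They were taken by gene symbol from a table of 61806 genes, and each symbol was found once. They were the coactivators YAP1 and WWTR1 (also called TAZ), the DNA-binding partner TEAD1, the 5 genes of the CCN family (CCN1 to CCN5, formerly CYR61, CTGF, NOV, WISP1 and WISP2), and ANKRD1 and AMOTL2. Messenger RNA was measured by RNA sequencing in 4 libraries. JJ012 cells derive from a human chondrosarcoma, a cartilage-forming tumour, and 143B cells from a human osteosarcoma, a bone-forming tumour. Each line was grown in suspension, either untreated or with 1 mM melatonin for 72 h, and each condition was measured in 1 library. No adherent culture was among the 4 libraries, so all values below are from detached cells. The JJ012 control and the 143B control serve both their own melatonin comparison and the comparison of the lines, so these comparisons share libraries.

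YAP1 and WWTR1 carry no DNA-binding domain of their own. When the Hippo kinases are active, the LATS kinases phosphorylate both proteins and hold them in the cytoplasm. When the kinases are inactive, both enter the nucleus, bind TEAD factors and switch on genes such as CCN1, CCN2, ANKRD1 and AMOTL2. Loss of attachment and of tension in the actin cytoskeleton is known to act on this switch. It is set largely by phosphorylation and localisation, which RNA levels do not measure.

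On hg38, the coactivator genes are YAP1 (ENSG00000137693, chr11:102110447-102233424, plus strand) and WWTR1 (ENSG00000018408, chr3:149517235-149736714, minus strand). TEAD1 (ENSG00000187079) spans chr11:12674421-12944737 on the plus strand. Of the targets, CCN1 (ENSG00000142871) lies at chr1:85580761-85584589 on the plus strand and CCN2 (ENSG00000118523) at chr6:131948176-131951372 on the minus strand. ANKRD1 (ENSG00000148677) lies at chr10:90912096-90921087 and AMOTL2 (ENSG00000114019) at chr3:134355347-134375479, both on the minus strand. CCN5 (ENSG00000064205) lies at chr20:44714844-44728509 on the plus strand. Values cover all annotated exons of a gene, UTRs included.

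TEAD factors recognise the motif CATTCC, which reads GGAATG on the other strand. The RefSeq promoter table (GRCh38.p14) held 7 transcription starts for 5 of the 10 genes, namely YAP1, WWTR1, CCN2, ANKRD1 and AMOTL2. The 250 bases before each start were searched on both strands. The motif occurred at least once before 11.9% of all 35116 starts, at least 2 times before 0.940% and at least 3 times before 0.0826%. The promoters below are shown because they hold the motif and belong to the genes whose levels the results turn on. Each is printed 5′ to 3′ on the strand of the gene, ending at the base before the start, with the TEAD motif in capitals.
CCN2, chr6:131951373-131951622, minus strand: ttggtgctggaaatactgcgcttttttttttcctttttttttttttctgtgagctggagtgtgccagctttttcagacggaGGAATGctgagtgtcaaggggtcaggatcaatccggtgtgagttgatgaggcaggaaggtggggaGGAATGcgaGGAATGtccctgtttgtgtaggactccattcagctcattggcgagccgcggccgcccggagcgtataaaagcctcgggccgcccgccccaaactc
ANKRD1, chr10:90921088-90921337, minus strand: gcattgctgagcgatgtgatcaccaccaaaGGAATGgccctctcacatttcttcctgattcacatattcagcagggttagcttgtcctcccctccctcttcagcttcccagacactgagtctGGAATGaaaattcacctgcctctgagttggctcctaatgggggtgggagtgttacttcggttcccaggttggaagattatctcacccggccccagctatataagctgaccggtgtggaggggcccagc
AMOTL2, chr3:134374448-134374697, minus strand: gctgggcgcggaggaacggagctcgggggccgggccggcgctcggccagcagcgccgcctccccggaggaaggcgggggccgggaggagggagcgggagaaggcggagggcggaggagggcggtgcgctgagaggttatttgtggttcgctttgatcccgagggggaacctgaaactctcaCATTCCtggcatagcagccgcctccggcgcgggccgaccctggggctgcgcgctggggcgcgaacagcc
YAP1, chr11:102110197-102110446, plus strand: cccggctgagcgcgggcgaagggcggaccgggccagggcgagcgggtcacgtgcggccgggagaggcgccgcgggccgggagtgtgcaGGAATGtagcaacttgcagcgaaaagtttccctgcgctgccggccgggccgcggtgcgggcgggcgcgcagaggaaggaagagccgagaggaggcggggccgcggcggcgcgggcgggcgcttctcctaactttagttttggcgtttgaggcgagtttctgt
In CCN2 the motif occurred 3 times, with first bases at -169, -104 and -95 from the start. In ANKRD1 it occurred 2 times, from -220 and from -128, in AMOTL2 once, from -69, and in YAP1 once, from -162. The other listed start of AMOTL2 and both listed starts of WWTR1 had no such letters in the window. The AP-1 motif TGANTCA was found once, in ANKRD1 from -195, where it did not overlap the TEAD motif, against 6.57% of all starts. The CArG box, the binding motif of SRF, was found in none of the 7 windows, against 1.16% of all starts. A match describes the sequence and does not show binding in these cells.

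The library totals were between 15889564 and 19218343 counts, so that 3 counts, taken as the floor, corresponded to between 0.156 and 0.189 CPM (counts scaled to a common library total). Levels are given as FPKM, in which counts are divided by the library total and by exonic length in kilobases. A change was taken as the log2 of (FPKM + 1) in the first library over the second, which understates changes at low FPKM, and was counted at an absolute value of at least 0.58. A gene was held against this threshold, and is called tested, if either library of the pair reached 1 FPKM. Beside it stands the fold change by CPM with its exact (Clopper-Pearson) 95% interval, which covers counting error only. No replicate was available, so none of the differences could be set against the spread between cultures, and no p-value is given. Loss of a subset of cells and less RNA per cell cannot be told apart in such libraries.

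As for the labelled cell types, SOX9, the chondrocyte transcription factor, was at 15.06 FPKM in the JJ012 control and 15.48 FPKM in the 143B control, while the cartilage matrix genes COL2A1 and ACAN had at most 5 and 19 counts in a library. In 143B, the osteoblast factor RUNX2 was at 4.28 and 2.75 FPKM, against 3.02 and 2.59 FPKM in JJ012, whereas IBSP had no count and SP7 at most 1 count. The summed osteoblast list was at 107.22 FPKM in the JJ012 control and 6.97 FPKM in the 143B control, and 79.39 FPKM of the former came from SPP1 and most of the rest from COL1A1 and COL1A2. The share of counts from mitochondrial genes was 6.78% in the JJ012 control and 4.35% with melatonin, and 1.63% and 2.46% in 143B. In JJ012, both tested chondrocyte markers of the list of 10 fell with melatonin (summed level of the list 18.5 to 7.35 FPKM), as did 2 of the 4 tested markers of other cell types of a list of 10 (13.33 to 9.78 FPKM), and 5 of the 10 chondrocyte markers were at 3 counts or fewer. Of the osteoblast list of 9 genes, 2 of 4 tested fell (107.22 to 68.34 FPKM). The 2 were COL1A2, from 2594 to 24 counts (12.48 to 0.14 FPKM), and COL1A1, from 1891 to 112 counts (10.92 to 0.77 FPKM). SPP1, at 79.39 and 64.50 FPKM, made up most of the sum in both libraries. Over all genes tested in JJ012, 18.6% fell. In 143B only 1 chondrocyte marker, 2 osteoblast markers and 4 markers of other cell types were tested. None of them passed the threshold, against 12.7% of all genes tested there. The part of these shifts in the results below was not tested.

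**Figure D1:**
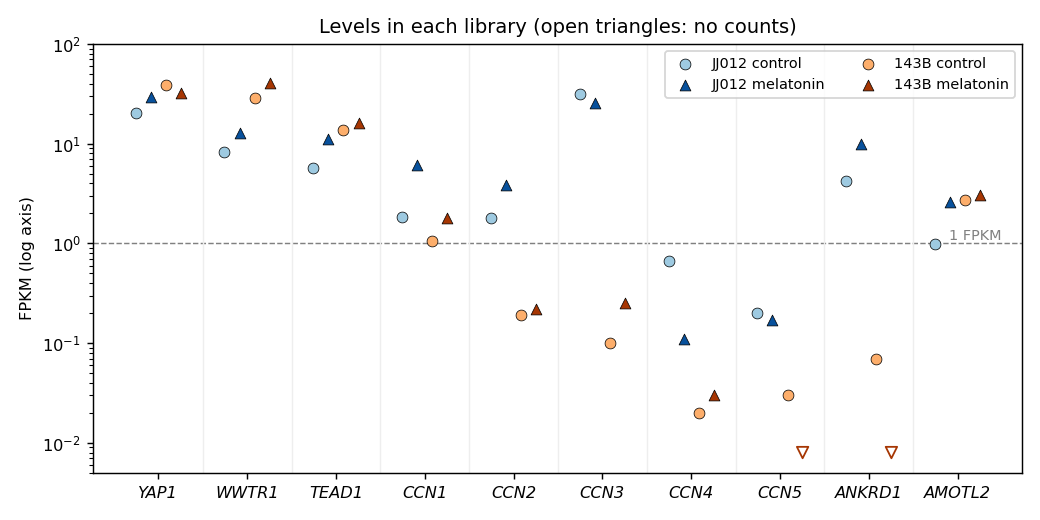
FPKM of the 10 genes (log axis) in the 4 libraries, with circles for controls and filled triangles for melatonin; open triangles mark libraries without a count, and the dashed line is 1 FPKM. YAP1, WWTR1 and TEAD1 lie above 5 FPKM in every library, while CCN3 reaches 31.15 FPKM in JJ012 and 0.25 FPKM in 143B.

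The untreated lines differed in both the regulators and the targets. The regulators were lower in JJ012 than in 143B, and CCN2, CCN3 and ANKRD1 were higher. By the threshold, 3 of the 8 tested genes were higher in JJ012 (CCN2, CCN3 and ANKRD1) and 4 were lower (YAP1, WWTR1, TEAD1 and AMOTL2). Over all 16929 genes tested, 68.7% differed between the lines, 41.3% being higher and 27.4% lower in JJ012. The median gene was 0.29 higher in JJ012 on the log2 scale, and of the differing genes 60.1% were higher there, against 47.7% with TMM scaling. The calls of the 7 genes kept their direction under every scaling tried.

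YAP1 was at 20.49 FPKM (2485 counts) in the JJ012 control and 39.21 FPKM (3932 counts) in the 143B control, 1.91-fold lower in JJ012 by CPM (interval 1.82 to 2.01). WWTR1 differed more, with 8.25 and 28.86 FPKM, 3.50-fold lower in JJ012 (3.28 to 3.72). The 2 coactivators are paralogs with shared partners, and their ratio per exonic length, YAP1 over WWTR1, was 2.48 (2.32 to 2.66) in the JJ012 control and 1.36 (1.30 to 1.42) in the 143B control. TEAD1 was at 5.71 and 13.69 FPKM, 2.40-fold lower in JJ012 (2.23 to 2.57). These 3 regulators had lower levels in JJ012 under all 8 alternative settings tried.

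The choice of TEAD factor also differed between the lines. In the JJ012 control, TEAD3 made up 38.8% of the summed FPKM of the 4 TEAD genes, TEAD2 31.5%, TEAD1 18.5% and TEAD4 11.1%. In the 143B control, TEAD4 made up 51.8%, TEAD1 23.1%, TEAD3 18.4% and TEAD2 6.70%. TEAD4 was at 3.43 FPKM in the JJ012 control and 30.73 FPKM in the 143B control, whereas TEAD3 was at 11.98 and 10.88 FPKM.

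Among the targets, the lines did not follow the order of the regulators. CCN2, which encodes connective tissue growth factor, had 82 counts (1.82 FPKM) in the JJ012 control and 7 counts (0.19 FPKM) in the 143B control, 9.69-fold higher in JJ012 (4.50 to 24.8). Its log2 difference of 1.24 was 0.53, under the threshold, with the length trend of that comparison removed. ANKRD1, a cardiac ankyrin repeat protein of muscle and stretched cells, had 147 counts (4.27 FPKM) and 2 counts (0.07 FPKM), a ratio of 60.8 (16.5 to 506). CCN1, a matricellular ligand of integrins, was nearer, with 1.83 FPKM in JJ012 and 1.06 FPKM in 143B, 1.73-fold higher in JJ012 (1.27 to 2.39). Its log2 difference of 0.46 was under the threshold. Over the alternatives it ranged from 0.01, with the length trend removed, to 0.73, with a pseudocount of 0.1 FPKM. AMOTL2, an angiomotin-like junction protein that binds YAP1, went the other way, with 0.98 FPKM in JJ012 and 2.74 FPKM in 143B, 2.80-fold lower in JJ012 (2.25 to 3.49).

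CCN3 showed the widest gap. CCN3 (ENSG00000136999, chr8:119416446-119424434, plus strand), a growth-restraining member of the family known from cartilage, had 1565 counts (31.15 FPKM) in the JJ012 control and 4 counts (0.10 FPKM) in the 143B control. Its ratio by CPM was 323 (126 to 1189), and its log2 change of 4.87 ranked at position 59 among the 16929 tested genes. CCN4 (ENSG00000104415, chr8:133191039-133231690, plus strand), a Wnt-induced member, had 66 and 2 counts, and CCN5, which lacks the C-terminal domain of the other members, had 19 and 2 counts. CCN4 and CCN5 lay under 1 FPKM in both lines.
Within the family, CCN3 made up 87.4% of the summed CCN level in the JJ012 control, at 35.66 FPKM in all. In the 143B control the sum was 1.40 FPKM, of which CCN1 made up 75.7%.

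In JJ012, melatonin was accompanied by higher levels of TEAD1 and of the 4 classical targets CCN1, CCN2, ANKRD1 and AMOTL2, while CCN3 differed little and CCN4 was lower. Of the 10 genes, 8 were tested, and 5 rose and none fell by the threshold, with a median log2 change of 0.81. Over all 15794 genes tested in JJ012, 38.2% passed the threshold, 19.6% rising and 18.6% falling, and the median was 0.01. Of the changed genes 51.4% rose, against 62.3% with TPM, 58.3% with TMM and 45.7% with CPM. The majority thus rose under each of these but CPM. CPM and FPKM divide by the same library total, so the CPM value differs only in where the pseudocount and the filter fall. By counting error alone, the interval of the CPM ratio lay above 0 on the log2 scale for 7 of the 10 genes (YAP1, WWTR1, TEAD1, CCN1, CCN2, ANKRD1 and AMOTL2), below 0 for CCN3 and CCN4, and included 0 for CCN5. The share of all genes with an interval clear of 0 was not computed, so these counts have no background beside them.

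YAP1 had 2485 counts in the JJ012 control and 3021 with melatonin, at 20.49 and 29.65 FPKM, 1.45-fold higher by CPM (1.37 to 1.53). Its log2 change of 0.51 stayed under the threshold. WWTR1 went from 8.25 to 12.73 FPKM (1325 and 1716 counts), 1.54-fold higher (1.43 to 1.66), with a log2 change of 0.57, just under the threshold. Both calls depended on the scaling. The median gene of JJ012 stood at 0.21 with TPM, where the log2 changes were 0.80 for YAP1 and 0.88 for WWTR1, and with TMM they were 0.59 and 0.63, all past the threshold. WWTR1 also passed with a pseudocount of 0.1 FPKM and with CPM, at 0.62 in both. TEAD1 rose from 5.71 to 11.10 FPKM (1175 and 1917 counts), 1.94-fold (1.81 to 2.09), a log2 change of 0.85. Its share of the summed TEAD level went from 18.5% to 29.6%, while TEAD2 went from 31.5% to 22.1%. These shares make no allowance for the trend with exonic length described below. With that trend removed, the log2 change was 0.54 for TEAD1 (10700 bases) and -0.03 for TEAD2 (2980 bases).

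CCN1 had the largest rise of the 10 genes in JJ012. It had 130 counts (1.83 FPKM) in the control and 366 counts (6.13 FPKM) with melatonin, 3.35-fold higher (2.74 to 4.13), a log2 change of 1.33 at position 461 of the tested genes. AMOTL2 rose from 122 to 275 counts, 0.98 to 2.63 FPKM, 2.68-fold (2.16 to 3.35). ANKRD1 rose from 147 to 287 counts, 4.27 to 9.93 FPKM, 2.32-fold (1.9 to 2.86). CCN2 rose from 82 to 145 counts, 1.82 to 3.84 FPKM, 2.11-fold (1.59 to 2.79). The relation of these changes to the TEAD motifs was not tested. CCN1 and CCN2 were at the same level per length in the JJ012 control, with a ratio of 1.00 (0.754 to 1.34), and CCN1 was 1.60 times CCN2 with melatonin (1.31 to 1.95).

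The other CCN genes of JJ012 did not rise. CCN3 went from 31.15 to 25.88 FPKM (1565 and 1092 counts), 1.20-fold lower by CPM (1.11 to 1.30). Its log2 change was -0.26 as FPKM and 0.01 as TPM, so its direction depended on the scaling. CCN4 lay under 1 FPKM and was not tested, with 66 counts (0.66 FPKM) in the control and 9 counts (0.11 FPKM) with melatonin, 6.16-fold lower by CPM (3.06 to 14.1). CCN5 had 19 and 14 counts, and its interval included no change. The summed CCN level was 35.66 FPKM in the control and 36.13 FPKM with melatonin, and the share of CCN1 and CCN2 in it went from 5.13% and 5.10% to 17.0% and 10.6%.

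**Figure D2:**
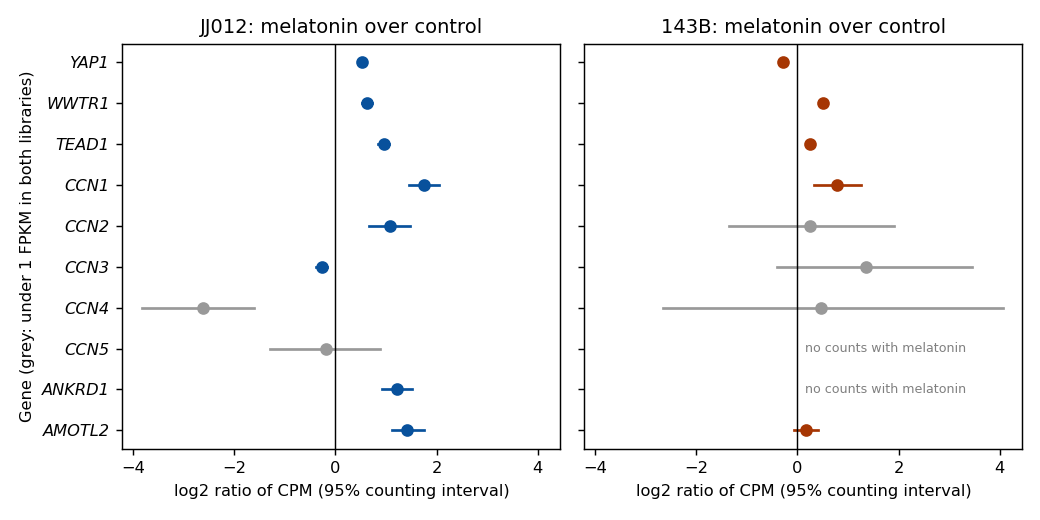
Log2 ratio of CPM, melatonin over control, for the 10 genes in JJ012 (left) and 143B (right); points are ratios, bars are 95% counting intervals, and grey marks genes under 1 FPKM in both libraries of the line. In JJ012, 7 intervals lie above 0, against 3 in 143B (WWTR1, TEAD1 and CCN1), and the share over all genes was not computed.

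In JJ012 the change of a gene moved with its exonic length. The median log2 change was 0.21 over the 6445 tested genes of at least 5000 bases, of which 24.9% rose, and -0.16 over shorter genes. Of the 8 tested genes, YAP1 (6311 bases), WWTR1 (8353), TEAD1 (10700) and AMOTL2 (6479) were above this length, while CCN1 (3698), CCN2 (2338), CCN3 (2614) and ANKRD1 (1790) were below it. After the running median over length was subtracted, the log2 change of TEAD1 was 0.54, under the threshold, and those of YAP1 and WWTR1 were both 0.33. The values of CCN1, ANKRD1 and CCN2 were then 1.44, 1.39 and 1.03, and that of AMOTL2 was 0.74. The rise of the 4 targets was thus past the threshold with and without the length trend, and that of TEAD1 only without the subtraction.

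**Figure D3:**
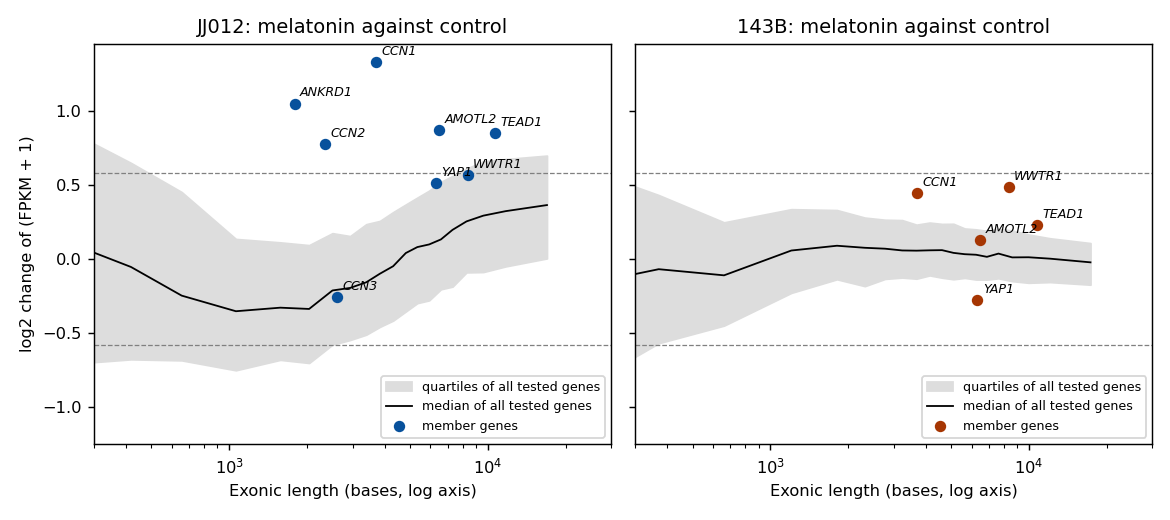
Log2 change of (FPKM + 1), melatonin against control, over exonic length (log axis) in JJ012 (left) and 143B (right); the line and the band are the median and quartiles of all tested genes in 20 length bins, points are the tested genes described here, and dashed lines mark 0.58. The bin of shortest genes (median 107 bases in JJ012 and 103 bases in 143B) lies outside the axis. In JJ012 the median is -0.35 in the bin at 1061.5 bases, higher in shorter bins, and 0.37 in the bin of longest genes. CCN1, ANKRD1 and CCN2 lie above genes of like length in JJ012 by 1.44, 1.39 and 1.03.

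In 143B, none of the 5 tested genes passed the threshold, against 12.7% of the 14135 genes tested in that line (6.09% rising and 6.65% falling). YAP1 had 3932 counts in the control and 3487 with melatonin, at 39.21 and 32.19 FPKM, 1.22-fold lower by CPM (1.16 to 1.28). WWTR1 was at 28.86 and 40.86 FPKM (3830 and 5858 counts), 1.42-fold higher (1.36 to 1.48). The coactivators thus exchanged places, with YAP1 over WWTR1 per length at 1.36 in the control and 0.788 (0.755 to 0.822) with melatonin, whereas in JJ012 the ratio with melatonin was 2.33 (2.2 to 2.47). TEAD1 was at 13.69 and 16.21 FPKM, 1.18-fold higher (1.12 to 1.25).

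The targets of 143B were low. CCN1 had 62 counts (1.06 FPKM) in the control and 115 counts (1.81 FPKM) with melatonin, 1.72-fold higher by CPM (1.25 to 2.38), a log2 change of 0.45 on the scale with the pseudocount. It passed the threshold with a pseudocount of 0.1 FPKM (0.72), with TPM (0.62) and with CPM (0.65). In all 3 settings the pseudocount was smaller beside the level of CCN1, which was 3.90 and 6.70 as CPM and 4.90 and 8.09 as TPM. They are therefore not separate results. AMOTL2 was at 2.74 and 3.08 FPKM, and its interval, 0.959 to 1.32, included no change. CCN2 had 7 and 9 counts, CCN3 4 and 11 counts, and CCN4 2 and 3 counts. ANKRD1 and CCN5 each had 2 counts in the control and none with melatonin, at or under the floor in both libraries, so no fold is given. The interval of the CCN2 ratio in 143B was 0.394 to 3.76, so a change within it was not detectable at this depth.

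The response of the lines was compared as the difference of their log2 CPM ratios, JJ012 minus 143B, with a 95% interval from counting error. The difference was 0.82 for YAP1 (0.72 to 0.92), 0.71 for TEAD1 (0.58 to 0.84), 0.96 for CCN1 (0.43 to 1.5) and 1.25 for AMOTL2 (0.87 to 1.64). For WWTR1 it was 0.12 (0.0039 to 0.24). CCN4 and CCN3 went the other way, with -3.10 (-5.87 to -0.33) for CCN4, from at most 3 counts in 143B, and -1.62 (-3.27 to 0.04) for CCN3. ANKRD1 and CCN5 had a library without counts, and no difference is given. For CCN2 the interval was -0.65 to 2.30, and the difference could not be measured with 7 and 9 counts in 143B. These intervals hold no variation between cultures and make no allowance for exonic length. With the length trend of each line removed, the log2 change of WWTR1 was 0.33 in JJ012 and 0.47 in 143B, the reverse order. In the same order, the values were 0.33 and -0.30 for YAP1 and 0.54 and 0.23 for TEAD1. They were 1.44 and 0.39 for CCN1, and 0.74 and 0.10 for AMOTL2.

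The order of the levels changed little with treatment. In the JJ012 control it was CCN3, YAP1, WWTR1, TEAD1, ANKRD1, CCN1, CCN2, AMOTL2, CCN4 and CCN5, and of these neighbours CCN1 and CCN2 did not differ beyond counting error. With melatonin YAP1 stood above CCN3, and TEAD1 (11.10 FPKM) and ANKRD1 (9.93 FPKM) could not be separated. In 143B the order was YAP1, WWTR1, TEAD1, AMOTL2 and CCN1 in the control, each apart from the next, and the remaining 5 genes were at 0.19 FPKM or less. With melatonin WWTR1 stood above YAP1.

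Among the other TEAD and VGLL genes, 2 of the 5 tested rose in JJ012, where 19.6% of all genes rose, and none passed the threshold in 143B, where 12.7% of all genes did. VGLL4, a TEAD cofactor that competes with YAP1, rose from 4.81 to 9.17 FPKM in JJ012 (665 and 1066 counts), a log2 change of 0.81, and was at 13.38 and 11.59 FPKM in 143B. VGLL3 rose from 2.14 to 4.03 FPKM in JJ012, a log2 change of 0.68, which was 0.37 with the length trend removed. TEAD4 had a log2 change of 0.50 in JJ012 and -0.06 in 143B, TEAD3 0.10 and -0.32, and TEAD2 -0.21 and -0.22. VGLL1 had no count in any library and VGLL2 at most 13 counts.

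In the Hippo kinase cassette and its upstream regulators, a list of 28 genes, 12 of the 26 tested genes rose (46.2%) and none fell in JJ012, against 19.6% and 18.6% of all genes, with a median log2 change of 0.44. Of the 26 genes, 24 had at least 5000 exonic bases, and with the length trend removed 7 rose and 1 fell, with a median of 0.26. Of all tested genes of at least 5000 bases, 24.9% rose before this removal. The shares of all genes past the threshold after the removal were not computed. The largest rise was that of LATS2, the kinase that phosphorylates YAP1 and is itself a YAP1 target, from 3.30 to 9.92 FPKM (356 and 899 counts), a log2 change of 1.34. WWC3, a scaffold of the KIBRA family, rose from 7.80 to 20.57 FPKM. TAOK1, which phosphorylates the Hippo kinases, rose from 5.93 to 14.89 FPKM, and STK4, which is one of these kinases, from 5.63 to 14.02 FPKM. In 143B, 2 of 27 tested genes rose (7.41%), near the 6.09% of all genes, at a median of -0.0011. They were FAT1, an atypical cadherin upstream of the pathway, from 5.47 to 10.65 FPKM, and MAP4K4, another kinase acting on LATS, from 46.67 to 77.48 FPKM.

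A published YAP/TAZ signature of 22 genes, which holds CCN1, CCN2, ANKRD1 and AMOTL2, had 11 of 19 tested genes rising (57.9%) and 4 falling (21.1%) in JJ012, at a median of 0.74. Over all genes 19.6% rose and 18.6% fell, so the falling share was near the background. Of the 11 rising genes, 4 belong to the 10 genes of this report. LATS2, described above, is another of the 11 and is counted in both lists. With the length trend removed, 10 rose and 3 fell, and the shares of all genes after this removal were not computed. ASAP1, a regulator of Arf GTPases, rose from 4.88 to 15.96 FPKM in JJ012, a log2 change of 1.53, and had 0.07 in 143B. IGFBP3, a binding protein of insulin-like growth factors, had 529 counts (6.02 FPKM) in the JJ012 control and 74 (1.00 FPKM) with melatonin, a fall with a log2 change of -1.81, and was at 224.19 and 231.85 FPKM in 143B. In 143B, 2 of 16 tested genes rose (12.5%) and 1 fell (6.25%), against 6.09% and 6.65% of all genes. NT5E, the ecto-nucleotidase CD73, rose from 20.53 to 33.69 FPKM there and had 12 and 8 counts in JJ012. MYOF, a membrane repair protein, passed the threshold in both lines but in opposite directions, with 36.31 and 79.70 FPKM in JJ012 and 20.63 and 12.64 FPKM in 143B. GADD45A, a stress gene that also answers to p53, rose in both lines by log2 changes of 1.14 and 1.09. No other gene of the signature rose past the threshold in both lines on the scale with the pseudocount of 1 FPKM, while CCN1 did so under the 3 settings given above.

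Genes of the actin cytoskeleton and of the SRF-MRTF system, which is linked to YAP activity, moved both ways in JJ012, where 4 of 17 tested genes rose and 4 fell, 23.5% each, near the shares of 19.6% and 18.6% over all genes. MYH9, the heavy chain of nonmuscle myosin, rose from 54.51 to 133.71 FPKM, and VCL, the adhesion protein vinculin, from 13.69 to 30.25 FPKM. The smooth muscle genes TPM2, from 54.71 to 13.88 FPKM, and ACTA2, from 90 to 7 counts, fell. In 143B none of the 17 tested genes passed the threshold.

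**Figure D4:**
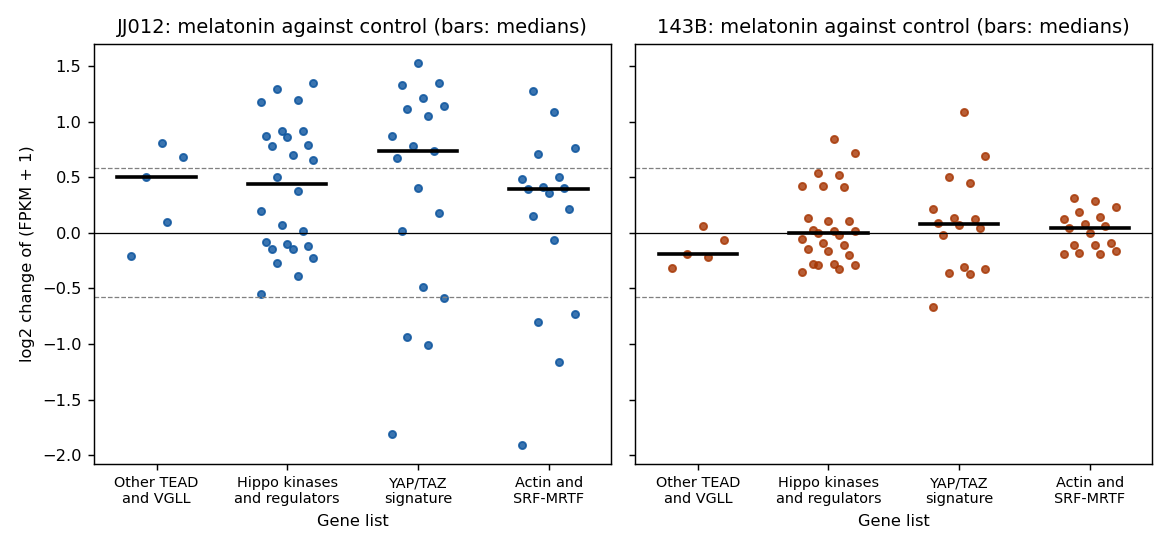
Log2 change of (FPKM + 1), melatonin against control, for the tested genes of the 4 pathway lists in JJ012 (left) and 143B (right); each point is a gene, bars are list medians and dashed lines mark 0.58. In JJ012 the medians lie between 0.40 and 0.74, and in 143B between -0.19 and 0.08.

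Over the lists, without the 10 genes themselves, 24 of 61 tested genes rose (39.3%) and 8 fell (13.1%) in JJ012, and 4 of 61 rose (6.56%) and 1 fell (1.64%) in 143B. The background shares were 19.6% rising and 18.6% falling in JJ012, and 6.09% and 6.65% in 143B. In JJ012, 43 of the 61 genes had at least 5000 exonic bases, a class in which 24.9% of all tested genes rose. With the length trend removed, 19 of the 61 rose and 7 fell in JJ012, and the shares of all genes after this removal were not computed. No gene list was tested against other genes.

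The genes most like YAP1 and CCN1 were taken as those with the smallest Euclidean distance over 3 values, namely the log2 changes in JJ012 and in 143B and the log2 ratio of the controls, among the 5744 genes that reached 5 FPKM in both lines. For YAP1 they were WASF2 (distance 0.035), NBPF9 (0.046), a member of a family of near-identical copies whose reads could be split between genes, and ILKAP (0.063). For CCN1 they were TXNRD1 (0.20), RMC1 (0.25) and TBC1D9 (0.25). The pseudocount compresses the log2 values of CCN1, at 1.06 to 6.13 FPKM, more than those of more abundant genes, and its distances hold on this scale only. No likeness is given for CCN2, which lay under 1 FPKM in 143B. These values rest on 4 libraries.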

How the data were processed

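Per the labels, poly(A) RNA of the 4 libraries was sequenced as paired ends, and the submitters' processing notes name cutadapt 1.9.1, HISAT2 2.2.1, HTSeq 0.6.1, DESeq2 and the build hg38. The strand setting and the annotation are not given in the sources used here. The deposited table holds unnormalized counts for every gene. Its FPKM, also deposited, equal those counts divided by exonic length and library total, to 2 decimals. Columns were matched to samples by cell line, with the suffix T read as treated. The exonic length (deposited by the authors as an other gene value) was used for TPM and for the length trend, a running median over 501 genes.

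The planned design assumed FPKM, with the pseudocount of 1 FPKM, the filter of 1 FPKM and the fold threshold of the study's methods (0.58 on the log2 scale). As counts were present, CPM ratios with 95% Clopper-Pearson intervals were added. With 1 library per condition no count model was fitted, and edgeR served for the TMM factors over the 4 libraries. PCR copies are not independent molecules, so intervals cover counting error only. All 10 genes were named, and from each longer list the genes past the threshold in both lines and up to 4 per line with the largest change. The genes and lists were chosen with earlier results of these data known. Genes overlapping the 10 on either strand had at most 41 counts in a library, the highest for KCNK15-AS1, which overlaps CCN5, followed by 37 for a gene overlapping CCN3. The alternatives were a lower pseudocount (0.1 FPKM), a stricter filter (5 FPKM) or none, centring on the median gene, TPM, CPM, TMM, removal of the length trend and a threshold of 1. The calculations were tested on simulated data. TMM was computed with edgeR 4.0.16 in R 4.3.3, and everything else with numpy 2.4.6, pandas 2.3.3 and scipy 1.17.1 in Python 3.11.15. Plots were drawn with matplotlib 3.10.9.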

Additional observations from a re-analysis of the deposited data

Results flagged for a closer look

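Of the 32 genes described by name under the rule, 9 had log2 CPM ratios of opposite sign in the lines, with both counting intervals clear of 0. Many of the named genes were chosen for a large change in these same libraries. The share of all genes with such opposite signs was not computed, so the count describes the named genes only. With 1 library per condition, the difference between the lines was not tested against the variation between cultures. Among the 10 YAP/TEAD genes this was YAP1 alone, with 0.53 in JJ012 and -0.28 in 143B. VGLL4 had 0.93 in JJ012 and -0.21 in 143B. For the kinases, the values in JJ012 and 143B were 1.59 and -0.39 for LATS2, 1.33 and -0.33 for TAOK1, 1.32 and -0.21 for STK4, and -0.16 and 0.73 for MAP4K4. In the signature, they were 1.13 and -0.71 for MYOF and -2.59 and 0.048 for IGFBP3. ACTA2 had -3.43 in JJ012, from 90 and 7 counts, and 0.57 in 143B, from 46 and 74 counts. With TPM the median gene moved from 0.01 to 0.21 in JJ012 and from 0.03 to -0.03 in 143B, and the value of MAP4K4 in JJ012 and that of IGFBP3 in 143B were within these shifts.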

How the results depend on the processing

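In JJ012, 5 of the 8 tested genes changed with melatonin, against 3 of 6 with a filter of 5 FPKM and 2 of 8 with a threshold of 1. With TPM 8 of 9 changed, 7 higher and 1 lower. Over all genes in JJ012, 3102 were called higher and 2934 lower, against 7637 and 4627 with TPM. The shares of all genes under the alternatives were not computed, so the counts here have no background beside them. In 143B, 0 of the 5 tested changed, against CCN1 alone in 3 settings. These were a pseudocount of 0.1 FPKM (1 of 5), TPM (1 of 7) and CPM (1 of 5). Between the controls, 7 of 8 tested differed, against 4 of 4 with a filter of 5 FPKM. In the 4 pathway lists without these genes, 32 changed in JJ012, against 14 with a threshold of 1, and 5 in 143B, against 10 with a pseudocount of 0.1 FPKM, 9 with CPM and 1 with a threshold of 1. The other 34 of 45 such counts were within 1.5 times of the reported ones. No log2 change past the threshold changed sign under any alternative for the 10 genes. The stricter filter and threshold by construction leave fewer genes, and for CCN1 in 143B the pseudocount weighed less, as described above. The cause of the other shifts was not tested. Counts under 20 limited CCN2, CCN3, CCN4, CCN5 and ANKRD1 in 143B, CCN5 in both JJ012 libraries and CCN4 in JJ012 with melatonin. No paired analysis was possible because each condition had 1 library. Leaving out a library was not possible for the same reason.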

Other observations

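The authors' table assigns 269 genes to the KEGG pathway named Hippo signaling pathway, a list added after the data were seen. In JJ012, 32 of its 117 tested genes rose (27.4%) and 13 fell (11.1%), at a median log2 change of 0.21, against 19.6%, 18.6% and 0.01 for all tested genes. With the length trend removed, 22 rose and 14 fell, and the shares of all genes after this removal were not computed. In 143B, 3 of 123 tested genes rose (2.44%) and none fell, at a median of -0.04, against 6.09% and 6.65% of all tested genes.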
